A study of Mus musculus with 36 samples.

Results

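Liver RNA was compared between male mice that had been returned from a high-fat to a low-fat diet and male mice that had eaten low-fat diet throughout. Mice of the HFLF group were fed high fat over 9 weeks, followed by 9 weeks of low fat. Those of the HF group had 18 weeks of high fat. The HF libraries enter the fit of all 18 liver libraries and are otherwise used to place HFLF levels. Those of the LF group had 18 weeks of low fat. All were wild-type C57BL/6 mice of the F0 (founder) generation, on chow until 6 weeks of age and sampled at 24 weeks. The comparison uses the 6 liver HFLF and the 6 liver LF libraries, 12 of the 36 libraries of the series, chosen by diet and tissue labels alone. It asks what still differed after the return. Whether the libraries of a group are from different mice is not stated in the labels, so the p-values measure the spread between these libraries, which may be technical in part.

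The liver integrates diet with the supply of glucose, lipid and plasma proteins to the body. Hepatocytes secrete large amounts of protein, which fold in the endoplasmic reticulum (ER) with the help of chaperones, while heat shock proteins fold client proteins in the cytosol. Fatty acids that reach the liver are burnt in mitochondria and peroxisomes under the nuclear receptor PPARalpha, or stored as triglyceride in droplets. Inflammation, stress hormones, feeding and time of day also reset liver transcription within hours.

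The table held 14052 genes. The HFLF libraries held 15105026 ± 2595939 counts and the LF libraries 19738284 ± 1984979 counts (mean ± SD, n = 6 each). Depth was lower in HFLF by an exact two-sided permutation test (p = 0.0108). Alb, the albumin gene, stood at 53580, 58010 and 65070 CPM in HFLF against 58120, 68370 and 82280 CPM in LF, as the lowest, the median and the highest of 6 libraries, so the tissue label fits both groups. CPM relate a count to the size of its library, here scaled by the TMM (trimmed mean of M-values) factors of the fit, and triplets below have the same order. The TMM factors were 1.004 to 1.05 in HFLF and 0.922 to 0.988 in LF, without overlap.

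The 6 LF libraries were not alike. LF libraries 1 to 4 correlated with the HFLF libraries at 0.944 to 0.97 and LF libraries 5 and 6 at 0.973 to 0.985 (Pearson's r of log2 CPM across genes, as a description). Results are therefore also given against LF libraries 5 and 6 alone. These libraries were set apart by their likeness to HFLF in these same values. Smaller differences and fewer calls against them were thus fixed in part by that choice. In parentheses after a gene, log2 fold changes of HFLF over LF are given ± SE with their adjusted p, and a log2 value after a semicolon is that against LF libraries 5 and 6. Among the 96 genes below that passed, the largest adjusted p was 0.0146. No label sets libraries 1 to 4 apart, and what separates them was not tested.

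edgeR called 3176 of the 14052 genes at an adjusted p of 0.05 (22.6%), 1432 of them higher in HFLF (10.2%) and 1744 lower (12.4%). With upper-quartile factors 3024 genes passed (21.5%), 1866 higher (13.3%) and 1158 lower (8.24%). Counts of genes that rose or fell in a list below are to be set against these shares of all genes. Tested against a 1.2-fold change, 687 passed (4.89%). The median log2 fold change over all genes was 0.00. The genes that rose were mostly of low level and moved further, with a median size of 0.60 on the log2 scale and a median LF level of 7.73 CPM. The genes that fell had a median size of 0.39 and a median LF level of 41.1 CPM. These sizes are of called genes alone, and at low level a larger change is needed to pass, so they are not compared on equal terms. In 380 of the genes that rose (26.5%) and 450 that fell (25.8%) the HFLF and LF libraries did not overlap, against 2.78% and 3.37% of all genes. By CPM over total counts, without TMM factors, these numbers were 636 and 121, so the balance between the directions rests on the scaling. Statements below that the groups of a gene did not overlap refer to the TMM scale. By CPM over total counts some of the genes that fell, such as Pfkfb3, do overlap. Against LF libraries 5 and 6 alone edgeR called 26 genes (0.185%), 19 higher (0.135%) and 7 lower (0.0498%), with 2031 at an unadjusted p under 0.05. Without LF libraries 1 and 2 it called 1396 genes (9.93%).

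Of 1015 long non-coding, antisense, processed and unclassified transcripts, 147 rose (14.5%) and 19 fell (1.87%). Their median log2 fold change was 0.25, and 0.11 against LF libraries 5 and 6. Of 12552 protein-coding genes 1252 rose (9.975%) and 1700 fell (13.54%). The median LF levels of these non-coding and protein-coding genes were 1.16 and 17.3 CPM, so the kinds of gene also differ in level. With upper-quartile factors the non-coding counts were 163 and 14. Processed pseudogenes, copies of messenger RNAs in the genome, leaned the other way. Of 231, 4 rose (1.73%) and 14 fell (6.06%), with a median of -0.13, and 5 and 11 with upper-quartile factors. Both shares were below those of all genes (10.2% and 12.4%), and the median LF level of these pseudogenes was 1.03 CPM. Of all genes with a mean of up to 1 CPM 10.03% rose and 1.63% fell, and above that up to 5 CPM 12.2% and 4.02%.

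A set of 21 genes passed with all libraries and also against LF libraries 5 and 6, with the same sign. Both fits share the HFLF libraries and LF libraries 5 and 6, so they are not independent. Of these 14 were higher and 7 lower in HFLF. The 20 with a named product are described here. They include a lipase, kinases, a bile acid transporter, a tubulin and co-chaperones. The genes described in the text were picked from those the rule named in part because no single library ended their call, so that stability supports nothing.

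Efna5, which encodes ephrin A5, a membrane-bound ligand of Eph receptors (ENSMUSG00000048915.12, chr17:62604184-62881317 in GRCm38), held 5.18, 6.08 and 8.59 CPM in HFLF and 2, 2.49 and 3.57 CPM in LF. Its log2 fold change was 1.28 ± 0.15 (adjusted p = 0.000219), and 1.42 against LF libraries 5 and 6 (adjusted p = 0.024). Every HFLF library was above every LF library. Extl1, a glycosyltransferase of the heparan sulfate family, held 13.3, 21.3 and 26.2 CPM in HFLF and 5.43, 6.84 and 8.7 CPM in LF (1.55 ± 0.15, adjusted p = 6.69e-05; 1.29 against LF libraries 5 and 6). Miga2, mitoguardin 2 of the mitochondrial outer membrane, held 88.8, 95 and 109 CPM in HFLF and 26.6, 43 and 53.9 CPM in LF (1.2 ± 0.14, adjusted p = 0.000199; 0.97). Neither gene had a library that crossed between the groups.

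Lipe, hormone-sensitive lipase, which releases fatty acids from stored glycerides, held 23.7, 26.4 and 29.9 CPM in HFLF and 12.3, 15.7 and 17.7 CPM in LF (0.80 ± 0.10, adjusted p = 0.000288; 0.83 against LF libraries 5 and 6, adjusted p = 0.0383). It overlaps 4732471J01Rik on the other strand, and reads of the pair cannot be told apart because no source used here states the strand used in counting. Pla2g15, a lysosomal phospholipase, held 17.2, 20.8 and 23 CPM in HFLF and 8.6, 13.2 and 17 CPM in LF (0.70 ± 0.13, adjusted p = 0.00174; 0.65). Both genes were high in all 6 HFLF libraries and did not overlap with LF.

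Among signalling genes, Pik3cb, a catalytic subunit of phosphoinositide 3-kinase, rose (0.59 ± 0.09, adjusted p = 0.000719; 0.69 against LF libraries 5 and 6). Nim1k, a kinase related to AMPK, held 4.08, 4.8 and 4.89 CPM in HFLF and 0.782, 1.49 and 2.21 CPM in LF (1.59 ± 0.20; 1.25). Fnip1, a partner of folliculin that binds AMPK, had the smallest rise of the set (0.45 ± 0.08; 0.54), and it missed the threshold when tested against a 1.2-fold change (adjusted p = 0.0524). The other genes of the set that rose were Iqce, whose product acts in Hedgehog signalling at the cilium (1.30 ± 0.19; 0.82), the centriole gene Cntrob (0.72 ± 0.10; 0.79), Plekhg6, a guanine nucleotide exchange factor (0.83 ± 0.13; 0.72), and the proprotein convertase Pcsk4 (1.42 ± 0.22; 0.79). Sec31b, a coat protein of vesicles that leave the ER, rose too (1.08 ± 0.17; 0.67), and shares reads with Gm20538 on the same strand where the models overlap.

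Slc10a2, the apical sodium-dependent bile acid transporter (ENSMUSG00000023073.2, chr8:5083219-5105351), fell the furthest of the 7 genes that were lower with all LF libraries, whereas Mbd1 did so against LF libraries 5 and 6. It held 16.6, 28.8 and 38.5 CPM in HFLF and 58, 105 and 148 CPM in LF, with 44.3, 46.2 and 54.2 CPM in HF. The log2 fold change was -1.79 ± 0.21 (adjusted p = 0.000226) and -1.12 against LF libraries 5 and 6 (adjusted p = 0.0383). The 3 groups did not overlap, with HFLF lowest and LF highest, and HFLF was also lower than HF (-0.72 ± 0.20, adjusted p = 0.049).

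Rasgef1b, an exchange factor of small GTPases, held 8.79, 13.9 and 15.2 CPM in HFLF and 24.8, 28.3 and 39.2 CPM in LF (-1.17 ± 0.13, adjusted p = 0.000179; -0.99 against LF libraries 5 and 6). P4ha1, a subunit of collagen prolyl 4-hydroxylase, held 9.7, 11.5 and 12.8 CPM in HFLF and 15.5, 23.1 and 45.9 CPM in LF (-1.25 ± 0.20, adjusted p = 0.00076; -1.03, adjusted p = 0.00565). Mbd1, a protein that binds methylated DNA, held 69.9, 96.5 and 132 CPM in HFLF and 166, 269 and 398 CPM in LF (-1.52 ± 0.23; -1.43). In these genes the HFLF libraries were all below the LF libraries, and LF libraries 1 and 2 were the highest.

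The remaining 3 genes of the set encode folding partners and a folding client. Tubb4b, a beta-tubulin, held 55, 64 and 78.1 CPM in HFLF and 98.7, 115 and 131 CPM in LF (-0.83 ± 0.10, adjusted p = 0.000226; -0.83 against LF libraries 5 and 6), and it overlaps Fam166a on the other strand. Dnajb2, a co-chaperone of HSP70, fell by 0.56 on the log2 scale (SE 0.08; -0.60), and Dnajb1, another such partner, fell by 1.08 (SE 0.22; -1.05). Dnajb1 was the only 1 of the 20 genes whose groups overlapped, at 19.2, 23.9 and 29 CPM in HFLF and 27.3, 49.5 and 81.8 CPM in LF.

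**Figure D1:**
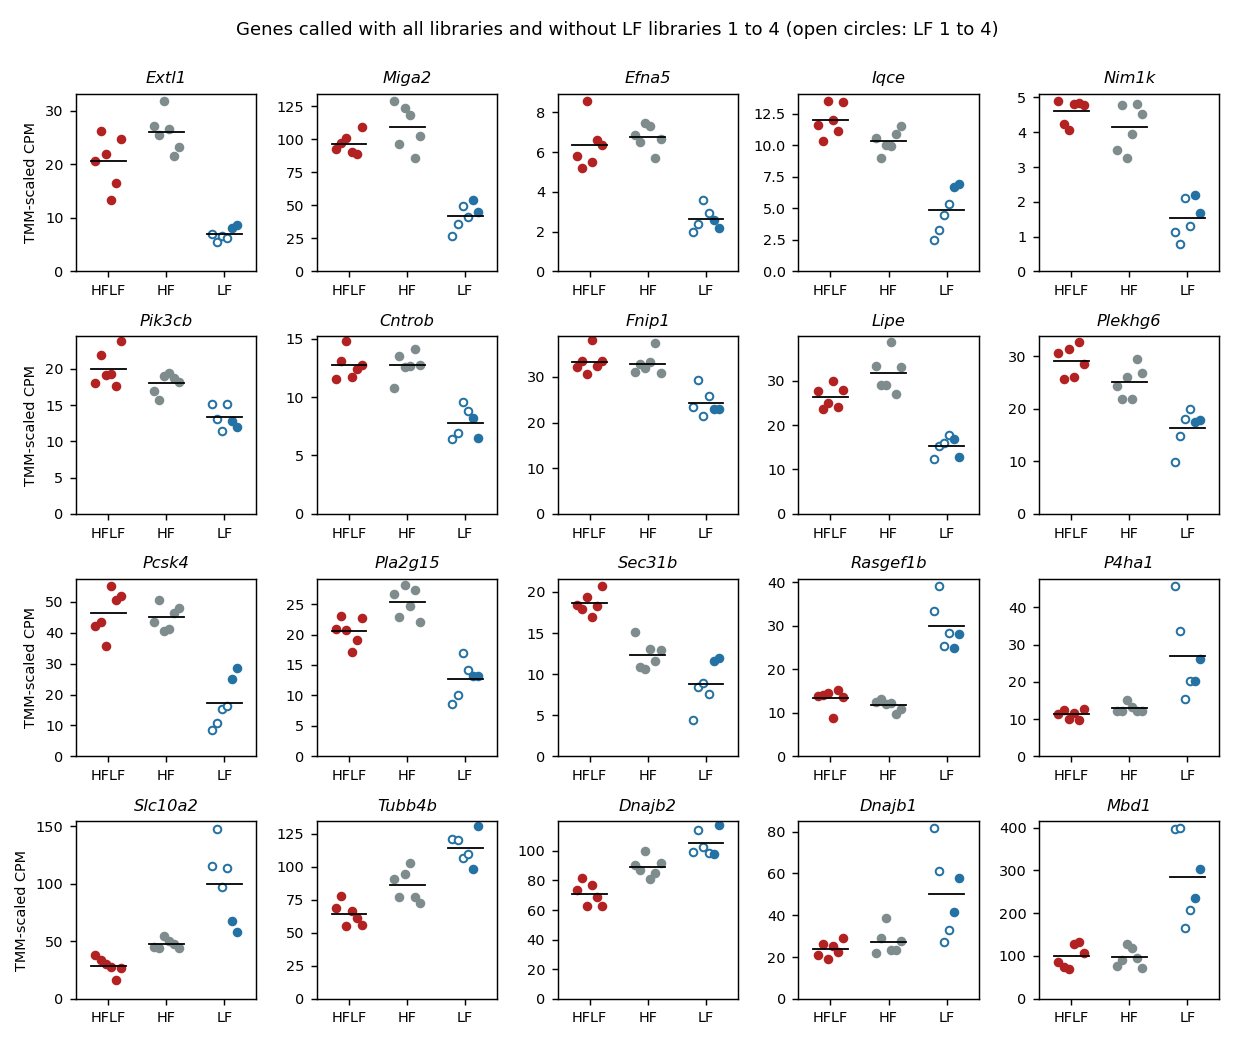
Levels of the 20 named genes that passed with all libraries and against LF libraries 5 and 6, in TMM-scaled CPM by library for HFLF, HF and LF liver; bars are means of 6 libraries and open circles are LF libraries 1 to 4. The HFLF points lie apart from the LF points in all panels but that of Dnajb1.

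Set against HF, 4 of these 20 genes differed. edgeR called 735 genes between HFLF and HF (5.23%), among them Slc10a2 as above, Tubb4b (-0.42 ± 0.10, adjusted p = 0.0258), Dnajb2 (-0.33 ± 0.08, adjusted p = 0.0232) and Sec31b (0.59 ± 0.16, adjusted p = 0.0464). For the other 16 the difference did not pass, which does not show that the levels are equal. Miga2, for example, held 85.6, 111 and 129 CPM in HF (HFLF minus HF -0.18 ± 0.13), Efna5 5.71, 6.76 and 7.45 CPM (-0.09 ± 0.14) and Pcsk4 40.7, 44.9 and 50.6 CPM (0.04 ± 0.22). HFLF libraries enter both comparisons, so the 2 sets of values are not independent.

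ER chaperone genes were lower in HFLF. Of 19 measured ER chaperones and folding enzymes 17 fell and 0 rose, against 12.4% of all genes that fell, with a median log2 fold change of -0.79. Against LF libraries 5 and 6 the median was -0.62, 18 of the 19 values were below 0, and 0 genes passed in edgeR, with 15 at an unadjusted p under 0.05 against 2031 of all 14052 genes. Hspa5, or BiP, the main HSP70 chaperone of the ER (ENSMUSG00000026864.13, chr2:34771970-34777547), held 464, 599.8 and 1016 CPM in HFLF and 1475, 2151, 1266, 1674, 1208 and 1195 CPM in LF libraries 1 to 6 (-1.13 ± 0.22, adjusted p = 0.00264; -0.81 against LF libraries 5 and 6). No HFLF library reached the lowest LF library.

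Promoter letters of 3 of these genes are shown, picked from the members of the group that hold a known control element. The ER stress element, bound by the factors ATF6 and NF-Y, is CCAAT and CCACG separated by 9 bases. Searched on both strands in RefSeq promoters of GRCm38.p6, from 250 bases before to 50 after the start, it was found in 7 of the 15 ER chaperone genes with a promoter in the table (Calr, Canx, Creld2, Dnajc3, Hsp90b1, Hspa5 and Pdia6). It was found in 39 of all 32851 promoters (0.119%), and in 0.182% of all measured genes with a promoter. Capitals mark the match, and a match is a description of letters, not evidence of binding.
Hspa5, chr2:34771840-34772139, plus strand: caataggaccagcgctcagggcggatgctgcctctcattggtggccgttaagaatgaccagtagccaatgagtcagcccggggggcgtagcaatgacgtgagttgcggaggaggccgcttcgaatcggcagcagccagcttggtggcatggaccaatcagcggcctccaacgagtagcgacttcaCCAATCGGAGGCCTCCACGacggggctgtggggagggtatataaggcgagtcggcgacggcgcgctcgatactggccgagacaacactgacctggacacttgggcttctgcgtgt
Hsp90b1, chr10:86705395-86705694, minus strand: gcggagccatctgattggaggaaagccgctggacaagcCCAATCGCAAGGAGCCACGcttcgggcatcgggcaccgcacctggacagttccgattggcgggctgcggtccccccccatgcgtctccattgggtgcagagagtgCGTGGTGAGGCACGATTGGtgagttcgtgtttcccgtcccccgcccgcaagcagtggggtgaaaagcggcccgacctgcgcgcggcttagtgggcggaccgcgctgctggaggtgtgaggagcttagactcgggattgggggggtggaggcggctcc
Canx, chr11:50325624-50325923, minus strand: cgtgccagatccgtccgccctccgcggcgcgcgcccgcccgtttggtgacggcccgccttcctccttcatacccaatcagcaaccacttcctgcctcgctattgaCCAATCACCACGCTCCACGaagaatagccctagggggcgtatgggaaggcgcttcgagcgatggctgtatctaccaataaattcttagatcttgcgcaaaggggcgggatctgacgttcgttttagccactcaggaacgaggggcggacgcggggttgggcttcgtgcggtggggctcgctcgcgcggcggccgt
The match begins 65 bases before the start in Hspa5 and 145 in Canx. Hsp90b1 has a pair of matches, 212 and 107 bases before its start, the nearer 1 on the opposite strand.

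Canx, or calnexin, which retains unfolded glycoproteins, held 336, 359 and 392 CPM in HFLF and 438, 482 and 519 CPM in LF (-0.40 ± 0.07, adjusted p = 0.00161), and did not pass when tested against a 1.2-fold change (adjusted p = 0.104). Dnajb11, a co-chaperone of BiP, held 81.2, 104 and 153 CPM in HFLF and 158, 206 and 239.9 CPM in LF (-0.89 ± 0.16, adjusted p = 0.00128). Both were apart from LF in every library on the TMM scale, but Dnajb11 was not by CPM over total counts. Hsp90b1, or GRP94, held 690, 747 and 983 CPM in HFLF and 941, 1345 and 1705 CPM in LF (-0.79 ± 0.16, adjusted p = 0.00323), where LF library 1 fell within the HFLF range.

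The machinery that brings proteins into and out of the ER was lower as well. Of 24 measured genes of ER-associated degradation and translocation 18 fell and 0 rose (median -0.46; -0.28 against LF libraries 5 and 6). The translocon-associated subunits Ssr1 (-0.59 ± 0.08, adjusted p = 0.000416) and Ssr2 (-0.55 ± 0.08, adjusted p = 0.000388) fell without overlap. Sensors and transcription factors of the unfolded protein response were less uniform: 8 of 19 fell and 11 did not pass (median -0.70; -0.29). Atf6b, an ER-membrane factor related to ATF6, held 23.6, 25.7 and 27.6 CPM in HFLF and 30.6, 37.6 and 43.8 CPM in LF (-0.53 ± 0.09, adjusted p = 0.00118).

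Cytosolic chaperones showed the same direction. Of 21 measured heat shock genes 20 fell and 0 rose (median -0.77; -0.66 against LF libraries 5 and 6, where 21 of 21 values were below 0, 18 had an unadjusted p under 0.05 and 1 gene, Dnajb1, passed). Bag3, which hands clients from HSP70 to autophagy, held 29.2, 37.2 and 47.6 CPM in HFLF and 58, 78.3 and 124 CPM in LF (-1.24 ± 0.17, adjusted p = 0.000388; -0.85 against LF libraries 5 and 6). Hsph1, an HSP110 exchange factor of HSP70, held 29.4, 44.9 and 70.4 CPM in HFLF and 202, 258, 111, 145, 87.6 and 168 CPM in LF libraries 1 to 6 (-1.77 ± 0.29, adjusted p = 0.00118; -1.43). Each of these genes was lower in all HFLF libraries than in any LF library.

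The same list holds Hsp90ab1, the constitutive HSP90, and its partners Stip1 and Ahsa1. Hsp90ab1 held 926, 975 and 1338 CPM in HFLF and 1398, 1665 and 1850 CPM in LF (-0.66 ± 0.10, adjusted p = 0.000479; -0.63). Stip1, which links HSP70 to HSP90 (-0.98 ± 0.14; -0.89), and Ahsa1, which activates the ATPase of HSP90 (-0.67 ± 0.10; -0.60), fell. Outside the list, Cct3, a subunit of the chaperonin that folds actin and tubulin, fell (-0.56 ± 0.08, adjusted p = 0.000388), as did the alpha-tubulin gene Tuba1c (-0.86 ± 0.11, adjusted p = 0.000329). The core of the heat shock element is GAA and TTC separated by 2 bases. Searched on both strands, it occurred in 10 of the 16 heat shock genes with a promoter in the table. Of all measured genes with a promoter 7.12% held it. A further 4 searches of the same kind were made. Percentages in parentheses are shares of all measured genes with a promoter. The C/EBP palindrome TTGCGCAA was found in 1 of 22 acute-phase genes (0.326%), and the metal response core, TGCACNC or TGCGCNC, in 5 of the 22 (39.6%). The cyclic AMP response element TGACGTCA was found in 2 of 21 immediate early genes (3.41%), and the E-box CACGTG in 5 of 21 circadian clock genes (11.6%).

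**Figure D2:**
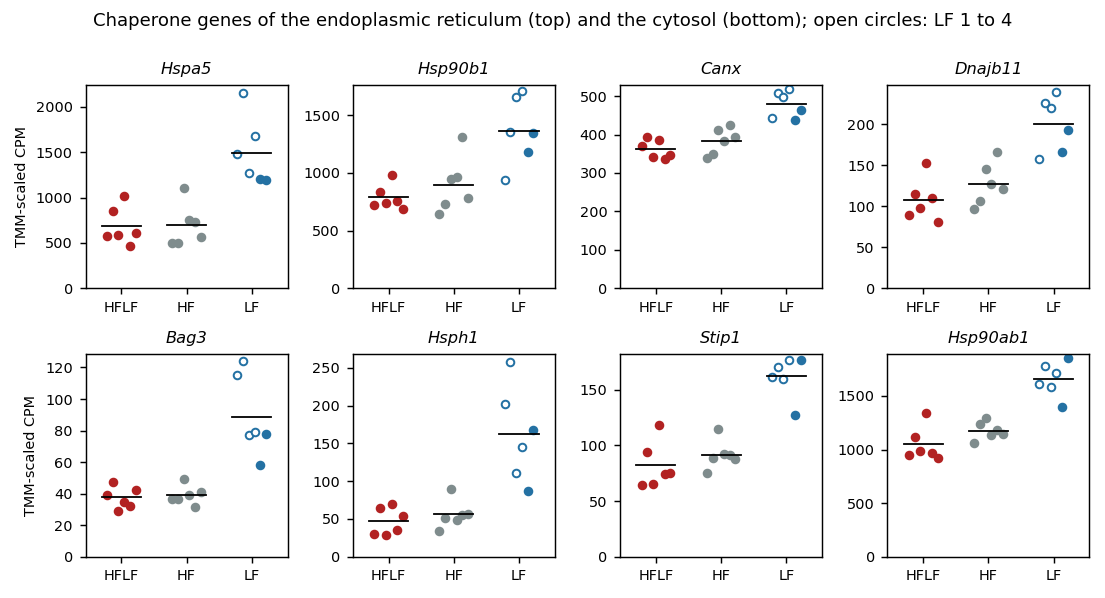
Levels of 4 ER chaperone genes (top row) and 4 cytosolic chaperone genes (bottom row) in TMM-scaled CPM by library for HFLF, HF and LF liver; bars are means of 6 libraries and open circles are LF libraries 1 to 4. LF libraries 5 and 6 lie above the HFLF points in each panel.

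Some genes of protein turnover and synthesis fell by small amounts. Of 36 proteasome genes 23 fell and 0 rose, with a median of -0.20 and -0.17 against LF libraries 5 and 6. With upper-quartile factors 10 fell (median -0.14). In 15 of the 36 every HFLF library was below every LF library, against 3.37% of all genes. The ATPase subunits Psmc4 (-0.33 ± 0.05, adjusted p = 0.000869) and Psmc2 (-0.33 ± 0.06, adjusted p = 0.00174) and the lid and base subunits Psmd7 (-0.28 ± 0.05) and Psmd1 (-0.27 ± 0.05) fell. None of the 4 passed a test against a 1.2-fold change (adjusted p of 0.219 to 0.595).

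Of 78 cytosolic ribosomal protein genes 20 fell, 0 rose and 58 did not pass. With upper-quartile factors 5 fell, against 8.24% of all genes. All 78 values were below 0 (median -0.24), and 76 were against LF libraries 5 and 6 (median -0.13). Rpl27 had the smallest p, at 20.3, 23 and 25.7 CPM in HFLF and 23.9, 28.6 and 31.9 CPM in LF (-0.29 ± 0.07, adjusted p = 0.0085), with groups that overlapped. In the list of ribosome biogenesis and translation factors 13 of 36 fell, 0 rose and 23 did not pass (median -0.22; -0.01 against LF libraries 5 and 6). Among them were Eif6, which keeps large subunits from joining too early (-0.65 ± 0.11, adjusted p = 0.00118; -0.23), Eif3b (-0.38 ± 0.06, adjusted p = 0.00109), and Bop1, needed to process ribosomal RNA (-0.60 ± 0.08, adjusted p = 0.000388). Wars, the tryptophanyl-tRNA synthetase, fell (-0.78 ± 0.11, adjusted p = 0.000388). In the mitochondrial ribosome 11 of 50 fell, 0 rose and 39 did not pass (median -0.12; -0.12), with Mrps12 first by p (-0.46 ± 0.06, adjusted p = 0.000388). With upper-quartile factors 5 of the 50 fell and 1 rose (median -0.05).

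The plasma proteins of inflammation and the early response genes fell by larger amounts, and stood nearer to HFLF in LF libraries 5 and 6. Of 26 acute-phase genes 24 fell (median -1.43), of 25 IL6, NF-kB and interferon signalling genes 20 fell (median -1.62), and of 25 immediate early genes 20 fell (median -1.31), with 0 that rose in any of the 3 lists. limma voom called 12 of the immediate early genes. Against LF libraries 5 and 6 the medians were -0.09, -0.13 and -0.30, and 0 genes passed in edgeR, with 1, 0 and 5 at an unadjusted p under 0.05. The summed level of the acute-phase list was 23070, 24270 and 28140 CPM in HFLF and 50710, 62600, 75450, 76490, 29520 and 24380 CPM in LF libraries 1 to 6. Here the 6 LF libraries split into 4 high and 2 low, and the 2 low ones stood near HFLF. In HF the sum was 21210, 22480 and 29930 CPM, and 0 of the 26 genes passed between HFLF and HF, which does not show that the levels are equal.

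Saa1, serum amyloid A, held 14.5, 21.2 and 27.7 CPM in HFLF and 1057, 1905, 3778, 3081, 28.3 and 15.3 CPM in LF libraries 1 to 6 (-6.30 ± 1.09, adjusted p = 0.00154; -0.06 against LF libraries 5 and 6), and it may share reads with Saa2. Mt2, a metallothionein that binds zinc, held 0.601, 1.55 and 2.22 CPM in HFLF and 385, 422, 354, 381, 2.04 and 0.892 CPM in LF libraries 1 to 6 (-7.48 ± 1.23; -0.03), and may share reads with Mt1. limma voom ended the call of Mt2 (adjusted p = 0.0708). The neutrophil attractant Cxcl1 held 2.66, 2.9 and 7.66 CPM in HFLF and 437, 366, 384, 280.2, 5.33 and 5.41 CPM in LF libraries 1 to 6. In all 3 genes LF libraries 5 and 6 stood within the HFLF range or just above it, and LF libraries 1 to 4 far above.

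Nfkbiz, an inducible regulator of NF-kB (-2.15 ± 0.42; -0.15 against LF libraries 5 and 6), and haptoglobin, Hp (-1.55 ± 0.29; -0.15), followed that pattern. The early response gene Fosl2 held 11.8, 13.2 and 16.1 CPM in HFLF and 118, 81.7, 38, 38.7, 20.1 and 15.3 CPM in LF libraries 1 to 6, and Btg2, which slows growth, 9.16, 10.3 and 14.8 CPM in HFLF and 218, 182, 62.6, 35, 19.8 and 7.7 CPM in LF libraries 1 to 6. Within LF, libraries 1 and 2 were the highest in both genes. Junb fell (-2.04 ± 0.39; -0.45), and overlaps Prdx2 on the other strand.

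On the TMM scale, a few genes of plasma proteins were low in HFLF against every LF library. Crp, C-reactive protein, held 233, 314 and 368 CPM in HFLF and 457, 498 and 732 CPM in LF (-0.81 ± 0.12, adjusted p = 0.000719; -0.56 against LF libraries 5 and 6, adjusted p = 0.0918). C3, the central complement protein, held 5196, 5671 and 5911 CPM in HFLF and 6339, 7654 and 10560 CPM in LF (-0.52 ± 0.14, adjusted p = 0.0143; -0.29), and did not pass against a 1.2-fold change (adjusted p = 0.119). Hpx, hemopexin, which carries heme, held 2457, 2761 and 2938 CPM in HFLF and 2970, 6398 and 9462 CPM in LF (-1.17 ± 0.23; -0.17). In none of the 3 genes did the groups overlap on the TMM scale, but by CPM over total counts those of C3 and Hpx did. None of the 3 passed against LF libraries 5 and 6.

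**Figure D3:**
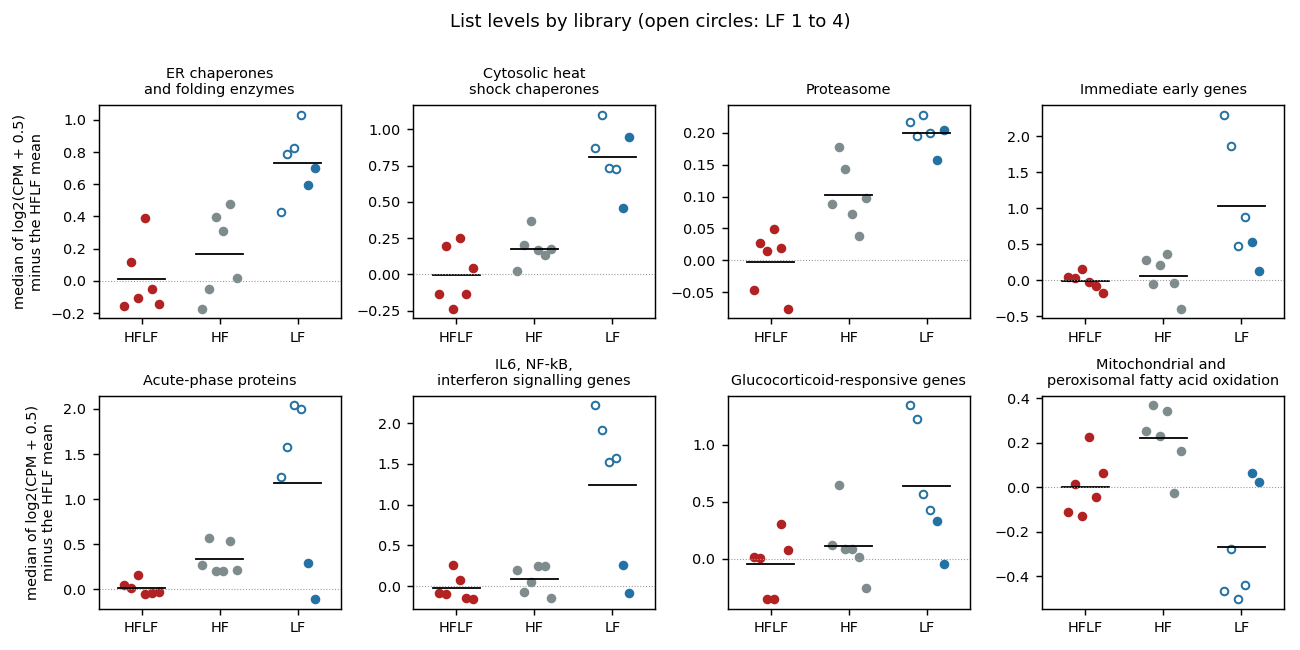
Level of 8 gene lists by library, as the median over members of log2(CPM + 0.5) minus the HFLF mean, for HFLF, HF and LF liver; bars are means of 6 libraries, and open circles are LF libraries 1 to 4. In the ER chaperone, heat shock and proteasome lists LF libraries 5 and 6 lie above the HFLF points, while in the acute-phase and IL6 lists they lie close to HFLF.

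Genes of stress hormones and fasting were highest in LF libraries 1 and 2. Of 23 glucocorticoid-responsive genes 11 fell and 0 rose (median -0.89; -0.19 against LF libraries 5 and 6). limma voom called 4 of the 23, and with upper-quartile factors 8 fell and 1 rose. Outside that list, Igfbp1, a binding protein of insulin-like growth factors that rises in fasting, held 18.9, 48.6 and 60.2 CPM in HFLF and 2672, 2040, 186, 368, 76.9 and 70.8 CPM in LF libraries 1 to 6 (-4.42 ± 0.85, adjusted p = 0.00266; -0.81). Tat, tyrosine aminotransferase and a member of the list, held 611, 850 and 1532 CPM in HFLF and 3518, 5057, 3277, 3314, 1061 and 2509 CPM in LF libraries 1 to 6 (-1.64 ± 0.32; -0.83). Nfil3, a repressor tied to the circadian clock, fell (-2.13 ± 0.39; -0.60). LF libraries 1 and 2 held far more Igfbp1 than LF libraries 3 to 6, and the time of day and feeding state at sampling are not given in the labels.

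Genes of sugar handling were called about as often as all genes. Of 24 genes of glycolysis, glycogen and fructose handling 2 rose and 4 fell (median 0.00), against 10.2% and 12.4% of all genes. With upper-quartile factors 3 rose and 2 fell, against 13.3% and 8.24% of all genes. Pfkfb3, which makes the activator of glycolysis fructose 2,6-bisphosphate, held 14.9, 29.3 and 64.7 CPM in HFLF and 71.6, 79.9 and 139.6 CPM in LF without overlap (-1.51 ± 0.36, adjusted p = 0.00791; -1.25 against LF libraries 5 and 6, adjusted p = 0.26). Ldha, lactate dehydrogenase A, fell (-0.61 ± 0.13; -0.17), and Gys2, liver glycogen synthase, rose (0.60 ± 0.14; 0.31; adjusted p = 0.064 against a 1.2-fold change).

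Genes of fat burning were higher in part. Of 39 genes of mitochondrial and peroxisomal fatty acid oxidation 9 rose (23.1%) and 0 fell, against 10.2% of all genes that rose. The median was 0.28, and 0.00 against LF libraries 5 and 6, where 0 passed in edgeR and 4 had an unadjusted p under 0.05. DESeq2 called 14 of the 39 with all libraries. Cpt1a, which lets fatty acids enter mitochondria, held 586, 639.9 and 790.5 CPM in HFLF and 382, 489, 488, 463, 528 and 374 CPM in LF libraries 1 to 6 (0.53 ± 0.10; 0.55). Ppara, the receptor PPARalpha itself, held 88.2, 106 and 118 CPM in HFLF and 43, 55.5, 76.8, 69.3, 50.2 and 72.8 CPM in LF libraries 1 to 6 (0.76 ± 0.16; 0.76). Both were higher in every HFLF library than in any LF library. Decr2, a peroxisomal reductase for unsaturated fatty acids, rose (0.57 ± 0.09, adjusted p = 0.00077) and was nearer to HFLF in LF libraries 5 and 6 (0.36).

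In the droplet and uptake lists, 5 of 26 genes of triglyceride synthesis and lipid droplets rose and 0 fell (median 0.14), and 6 of 22 genes of fatty acid uptake and binding rose and 1 fell (median 0.11). Lipe was the 1 droplet gene that also passed against LF libraries 5 and 6. Plin5, a droplet coat protein that ties droplets to mitochondria, held 64.7, 84.7 and 117 CPM in HFLF and 46.4, 56.3 and 65.9 CPM in LF (0.63 ± 0.14, adjusted p = 0.00579; 0.43), with groups that overlapped. Slc27a1, a fatty acid transport protein, held 11.7, 15.8 and 20.4 CPM in HFLF and 5.71, 7.57 and 12.3 CPM in LF (0.95 ± 0.17, adjusted p = 0.00161; 0.68).

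In edgeR the calls were 0 of 22 genes of de novo lipogenesis (median 0.19; 0.22 against LF libraries 5 and 6) and 0 of 24 of cholesterol synthesis and uptake (median -0.07; 0.08). At an unadjusted p under 0.05 the counts were 4 and 2, in DESeq2 3 and 0, in limma voom 4 and 1, and with upper-quartile factors 2 and 1. Scd1, stearoyl-CoA desaturase, held 12120, 17620 and 19790 CPM in HFLF, 2431, 4441 and 16290 CPM in HF and 7674, 12000 and 18900 CPM in LF, with a log2 fold change of 0.34 ± 0.37 against LF (adjusted p = 0.526) and of 1.44 ± 0.37 against HF (adjusted p = 0.0355). Srebf1, the factor that drives lipogenesis, stood at 0.66 ± 0.26 (adjusted p = 0.0776), but passed without LF library 6 (0.99, adjusted p = 0.00186) and in DESeq2, limma voom and the fit with a replicate block.

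**Figure D4:**
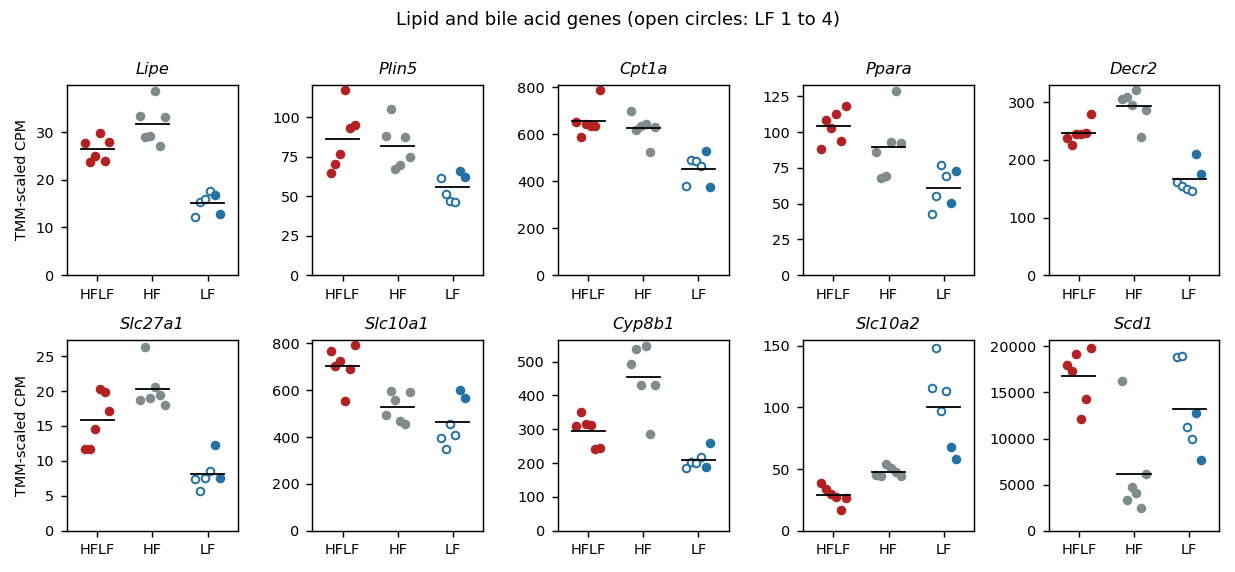
Levels of 10 lipid and bile acid genes in TMM-scaled CPM by library for HFLF, HF and LF liver; bars are means of 6 libraries and open circles are LF libraries 1 to 4. HFLF and LF points are apart for Lipe, Cpt1a, Ppara, Decr2 and Slc10a2 and overlap for Plin5, Slc27a1, Slc10a1, Cyp8b1 and Scd1.

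Bile acid genes differed gene by gene. Of 27 measured, 6 rose and 2 fell (Slc10a2 is not in the list; median 0.22, and -0.04 against LF libraries 5 and 6). Slc10a1, or NTCP, which takes bile acids up from blood, held 556, 713 and 791 CPM in HFLF and 350.5, 433 and 599 CPM in LF (0.61 ± 0.13, adjusted p = 0.00339; 0.28), the opposite direction to Slc10a2. Cyp8b1, the enzyme that makes cholic acid, held 241, 311 and 350.5 CPM in HFLF, 286, 463 and 545 CPM in HF and 185, 201 and 259.5 CPM in LF. It was higher than in LF (0.50 ± 0.14, adjusted p = 0.0146) and lower than in HF (-0.62 ± 0.14, adjusted p = 0.0186), but the first call was lost without LF libraries 1 and 2 (0.45, adjusted p = 0.0777). Baat, which conjugates bile acids to taurine, fell (-0.48 ± 0.10, adjusted p = 0.00321; adjusted p = 0.0717 against a 1.2-fold change). Abcg8, a sterol exporter into bile whose model overlaps Abcg5 on the other strand, rose (0.70 ± 0.13, adjusted p = 0.00161). Npc1, which moves cholesterol out of lysosomes, held 169, 184 and 219.7 CPM in HFLF and 95.3, 112 and 153 CPM in LF (0.74 ± 0.11, adjusted p = 0.0007; 0.52).

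Of 25 antioxidant and NRF2 target genes 9 fell and 0 rose (median -0.20; -0.14 against LF libraries 5 and 6). Txnrd1, thioredoxin reductase, held 129, 154 and 163 CPM in HFLF and 168, 254 and 290.2 CPM in LF (-0.66 ± 0.10, adjusted p = 0.000719; -0.30). Gss, glutathione synthetase (-0.70 ± 0.12; -0.56), Gsr, glutathione reductase (-0.44 ± 0.08; -0.25), and Ugdh, which makes UDP-glucuronate (-1.05 ± 0.19; -0.64), fell without overlap. By CPM over total counts, HFLF and LF libraries did overlap in Gss and Gsr. The model of Gss overlaps Acss2 on the other strand, and that of Ugdh overlaps Gm43552 on the same strand. Gsr did not pass against a 1.2-fold change (adjusted p = 0.0691). In the iron and heme list 10 of 25 fell and 3 rose, among them the iron importer Slc11a2, which held 32.6, 37 and 48.5 CPM in HFLF and 75.3, 113, 108, 114, 39.3 and 49.2 CPM in LF libraries 1 to 6 (-1.13 ± 0.22; -0.22).

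Against HF, 4 of 22 genes of de novo lipogenesis were higher in HFLF and 0 lower, while 7 of 39 of fatty acid oxidation and 9 of 50 of the mitochondrial ribosome were lower and 0 higher, against 5.23% of all genes in either direction. Besides Scd1 and Cyp8b1, the described genes outside the set of 20 that differed from HF were all lower in HFLF. They were Tuba1c (-0.65 ± 0.11, adjusted p = 0.00609), Ugdh (-0.80 ± 0.19, adjusted p = 0.0238), Gss (-0.50 ± 0.12, adjusted p = 0.0267), Mrps12 (-0.27 ± 0.06, adjusted p = 0.0241) and Psmc4 (-0.26 ± 0.05, adjusted p = 0.0131). Tuba1c held 20.9, 23.8 and 26.7 CPM in HFLF, 32.8, 36.2 and 45.2 CPM in HF and 30.7, 43.4 and 55 CPM in LF, and Psmc4 held 71.4, 77.1 and 83 CPM in HFLF, 87.1, 93.1 and 95.8 CPM in HF and 90.2, 96.5 and 106 CPM in LF. In both genes every HFLF library was below every HF and every LF library. For Hspa5 and Bag3 the difference from HF did not pass: Hspa5 held 495, 653 and 1108 CPM in HF (HFLF minus HF -0.02 ± 0.22, adjusted p = 0.973), and Bag3 31.4, 38.1 and 49.1 CPM (-0.05 ± 0.17, adjusted p = 0.886).

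Other genes among those with the smallest p and no overlap between the groups were Rfx4, a transcription factor (1.93 ± 0.23, adjusted p = 0.000226; 1.39 against LF libraries 5 and 6), Nmnat3, which makes NAD in mitochondria (1.11 ± 0.14; 0.90), Paqr7, a membrane progestin receptor (1.83 ± 0.25; 1.21), and Wdr73 (0.80 ± 0.11; 0.56), all higher. The adaptor gene Shb was lower (-1.54 ± 0.19; -0.83). Paqr7 held 64.3, 80.9 and 118 CPM in HFLF and 14.9, 15.9, 17.3, 19.9, 36.8 and 35.1 CPM in LF libraries 1 to 6. Shb held 43.2, 46.5 and 64.5 CPM in HFLF and 185, 188, 148, 158, 72.5 and 103 CPM in LF libraries 1 to 6. In both, LF libraries 5 and 6 were nearer to HFLF than LF libraries 1 to 4 were.

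Of 36 cell cycle genes 3 rose and 0 fell, against 10.2% and 12.4% of all genes, among them Cdt1, which licenses DNA replication, at 3.97, 4.84 and 6.01 CPM in HFLF and 1.93, 2.42 and 3.73 CPM in LF (0.83 ± 0.16, adjusted p = 0.00255). Ddb2, a DNA damage sensor, rose (0.90 ± 0.14, adjusted p = 0.0007), while 6 of the 20 DNA damage and p53 target genes fell. In the DNA methylation and chromatin list 5 of 23 rose (7 with upper-quartile factors) and 0 fell, with the DNA methyltransferase Dnmt3a at 29.4, 31.6 and 42.2 CPM in HFLF and 19.9, 23.7 and 28.1 CPM in LF (0.47 ± 0.12, adjusted p = 0.00804; 0.56) and the histone methyltransferase Ezh1 at 0.38 ± 0.09 (adjusted p = 0.00749). Neither passed against a 1.2-fold change (adjusted p = 0.115 and 0.235). Of 18 microRNA processing genes 2 rose (5 with upper-quartile factors) and 1 fell, against 10.2% and 12.4% of all genes, and DESeq2 called 7. They include Prkra, a partner of Dicer (0.35 ± 0.08), and Ago2 of the silencing complex (-0.48 ± 0.11), which overlaps Chrac1 on the other strand. Tfe3, a factor that drives lysosomal genes, held 26.5, 29.5 and 30.8 CPM in HFLF and 34.7, 56.7 and 84.4 CPM in LF (-1.02 ± 0.16, adjusted p = 0.000928; -0.38), and the autophagy receptor Sqstm1 fell (-0.59 ± 0.12; -0.33). In the lysosome and autophagy list 4 of 29 rose and 5 fell, against 10.2% and 12.4% of all genes. With upper-quartile factors 6 of the 29 rose and 2 fell. Genes of other strands also overlap Bop1 (Mroh1), Eif6 (Gm16098), Psmd1 (Htr2b), Srebf1 (Rai1), Npc1 (Rmc1), Slc11a2 (Gm5475), Ddb2 (Acp2), Dnmt3a (Dnmt3aos), Sqstm1 (Mrnip), Mt2 (Gm45774) and Krt8 (Gm36026), and Gm15344 overlaps Hsp90b1 on the same strand.

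Some B cell markers rose in HFLF. In bulk tissue, fewer cells of a type and less RNA per cell cannot be told apart. Of 13 measured B and plasma cell markers 7 rose and 1 fell (median 1.25; 1.02 against LF libraries 5 and 6, where 0 passed in edgeR and 5 had an unadjusted p under 0.05). Among the 4 of the 13 with a mean of at least 5 CPM the median was 0.37. Pax5, a transcription factor of B cells, held 0.294, 0.801 and 1.18 CPM in HFLF and 0.0586, 0.27 and 0.43 CPM in LF (1.64 ± 0.39, adjusted p = 0.00693; 0.98), with groups that overlapped, and its model overlaps Gm12462 on the other strand. Sdc1, which hepatocytes also express, fell (-0.44 ± 0.10; adjusted p = 0.124 against a 1.2-fold change) and takes up much of the list's summed level, at 485, 567 and 730.1 CPM in HFLF and 522, 739 and 929 CPM in LF.

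Among stellate cell and fibroblast markers 4 of 16 rose and 0 fell, with Colec10 (0.64 ± 0.14; 0.34 against LF libraries 5 and 6) and Vipr1 (0.83 ± 0.18; 0.32) first by p. Of the 12 neutrophil markers 3 were in the table, without Ly6g, and 2 of these fell, including S100a9, at 0.141, 0.472 and 0.654 CPM in HFLF and 9.31, 6.26, 4.28, 5.72, 0.753 and 0.112 CPM in LF libraries 1 to 6, and their summed level was 3, 3.86 and 4.85 CPM in HFLF and 21.1, 14.5, 11, 14, 5.43 and 2.34 CPM in LF libraries 1 to 6. In the neutrophil and the acute-phase sums alike, LF libraries 1 to 4 stood above LF libraries 5 and 6. Among LF libraries 1 to 4, library 1 was highest in the neutrophil sum and lowest in the acute-phase sum. The neutrophil markers were of low level, and their part in the acute-phase result was not tested. Krt8, an epithelial keratin of hepatocytes and bile ducts, fell (-1.13 ± 0.29), but held 684 CPM in LF library 1 and stood at -0.72 without it, and the call was lost without LF libraries 1 and 2 (-0.60, adjusted p = 0.0513). The hepatocyte markers summed to 100300, 105300 and 111600 CPM in HFLF and 110900, 117800 and 139900 CPM in LF. Of the 11 markers 1 rose, 2 fell and 8 did not pass. Hnf4a, a nuclear receptor that maintains hepatocyte identity, held 674, 790.4 and 1106 CPM in HFLF and 1108, 1195 and 1308 CPM in LF (-0.54 ± 0.10, adjusted p = 0.00201; -0.48), without overlap. By CPM over total counts, HFLF and LF libraries did overlap in Hnf4a. No marker of Kupffer cells fell (1 of 14 rose).

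**Figure D5:**
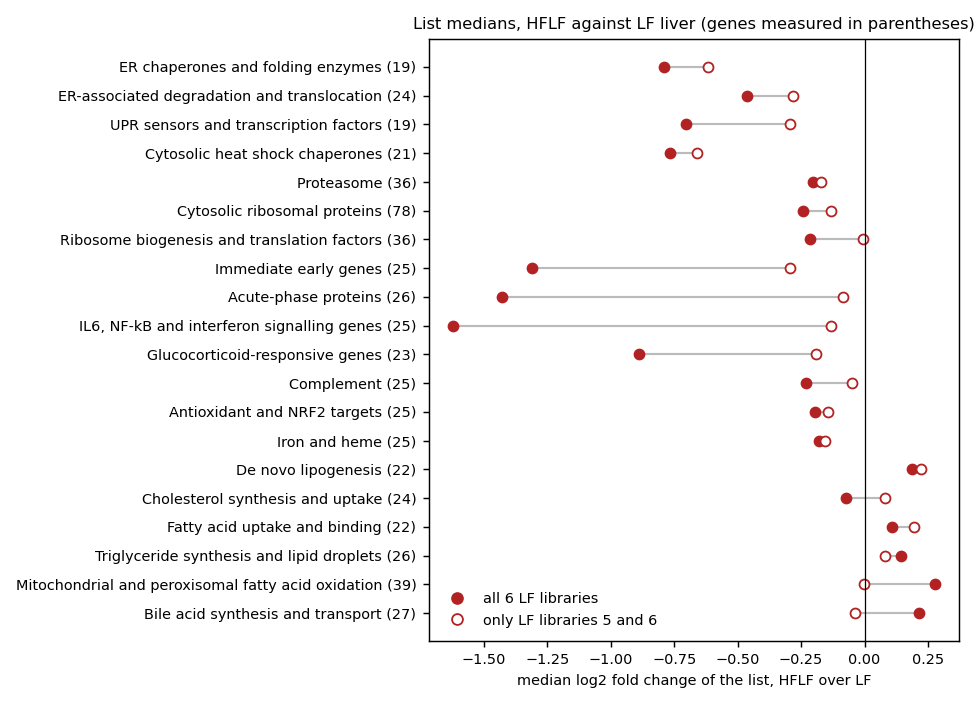
Median log2 fold change of 20 gene lists, HFLF over LF liver, with all 6 LF libraries (filled) and against LF libraries 5 and 6 alone (open); the number of measured genes is in parentheses. The ER chaperone and heat shock medians stay below -0.6 in both, while the acute-phase, IL6 and immediate early medians move to between -0.3 and 0.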

How the data were processed

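Liver total RNA was extracted with TRI reagent and libraries were made with a NovaSeq 6000 kit, per the labels' protocols. The tool STAR, without a version, and the build GRCm38.p6 are named in the submitters' processing notes, per the labels. The authors deposited raw counts per gene, kept above a filter on CPM. Every gene of the table exceeded 0.5 CPM in at least 6 of the 18 liver libraries. No source used here gives the counting tool or the strand. A deposited RPKM table of the same libraries was not used, because its values did not follow the counts of the genes they stand beside. The series text gives 4 to 6 samples a group, while 6 are labelled.

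All 18 liver libraries were fitted together with edgeR 4.0.16 (R 4.3.3; TMM factors, robust quasi-likelihood F test), and p-values were adjusted by Benjamini-Hochberg over 14052 genes. Fold changes are HFLF over LF, given as log2 ± SE. Alternatives used DESeq2 1.42.0 and limma 3.58.1 (voom), other factors, filters, thinned counts, a 1.2-fold threshold and left-out libraries. The fit was also run on simulated counts, drawn from a common mean per gene with no split within LF. It called 49.3% of the genes changed 1.5-fold, 67.2% at 2-fold and 92.4% at 4-fold, with 11 false calls. The simulation thus does not cover the differences seen between LF libraries. Depth was 12680625 to 23295485 counts in the 12 libraries. Gene positions are from GENCODE M21, which matched 14039 genes.

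The comparison, gene lists and naming rule were chosen with earlier results of these data known. Named were the 12 smallest p in each direction among genes with a mean of at least 4 CPM and no overlap, the genes passing in both fits, up to 4 of smallest p in each described list, and a fixed set of genes. The rule named 282 genes, of which 99 are described and 183 are not; some results are not reported here. Levels are TMM-scaled CPM. CPM over total counts was used first, and the TMM scale was taken after those values had been seen; 23 of the 24 genes named by smallest p were the same on both.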

Additional observations from a re-analysis of the deposited data

Results flagged for a closer look

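In 11 of the 198 groups of 6 libraries checked for the genes described, 1 library stood apart from the others by Dixon's criterion, and chance alone gives about 1 in 20. In HFLF, library 4 was low in Rasgef1b (8.79 CPM, nearest 13.6) and high in Bop1 (33.4, nearest 27.9). Library 2 was high in Shb (64.5 CPM, nearest 47.3), library 3 in Cxcl1 (7.66, nearest 3.53) and library 6 in Cpt1a (791, nearest 652). In LF, library 5 was low in Stip1 (128 CPM, nearest 159.7). LF library 6 was high in Srebf1 (478 CPM, nearest 257), Ddb2 (3.24, nearest 2.44) and Npc1 (153, nearest 114). LF library 1 was high in Sqstm1 (1056 CPM, nearest 744) and Krt8 (684, nearest 303).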

How the results depend on the processing

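The 3176 calls between HFLF and LF came to 687 when tested against a 1.2-fold change, 26 against LF libraries 5 and 6 alone, and 1396 with LF libraries 1 and 2 left out. Leaving out 1 library at a time gave 2130 (without LF library 2) to 3918 (without LF library 5). The cause of these moves was not tested, beyond the fewer libraries and the stricter question that the settings set. The other settings stayed within 1.5 times: 3658 in DESeq2, 3627 in limma voom, 3020 with a replicate block, 2270 with only the 2 groups, 2617 at a mean of at least 5 CPM and 2808 after thinning. Upper-quartile factors gave 1866 higher and 1158 lower, with the median of all genes shifted by 0.06. By CPM over total counts, a scale added after the data were seen, 636 genes that rose and 121 that fell did not overlap between the groups, in place of 380 and 450. The 735 calls between HFLF and HF were 1322 in DESeq2, 1729 in limma voom, 1181 with only the 2 groups, 444 with a replicate block, 6 against a 1.2-fold change and 215 to 1036 with 1 library left out, lowest without HF library 4 and highest without HF library 5; leaving out HFLF library 3, 4, 5 or 6 or HF library 1, 2, 3 or 4 gave fewer than the 735 by over 1.5 times. Same-numbered HFLF and LF libraries correlated at -0.08 to 0.26 in their deviations, and 2 of 6 correlated best with their own number, so the numbers were not taken to pair libraries. Of the 99 genes described, 76 lost their call without LF libraries 1 to 4, where few libraries remain, and 18 against a 1.2-fold change; no gene changed sign in any setting. Srebf1 gained a call in DESeq2 (adjusted p = 0.0422), limma voom (0.00803) and with the replicate block (0.0477). Depth limits genes of low level such as Pax5 and S100a9 most. The depth difference of -4633258 counts was -5571992 to -3921818 with 1 library left out and -3798079 without the 10 genes of highest level.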

Other observations

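None of 27 fibrosis and matrix genes (median 0.04) and none of 24 pericentral hepatocyte genes (median 0.12) passed in edgeR. At an unadjusted p under 0.05 there were 3 and 5, in DESeq2 0 and 3, in limma voom 1 and 4, and with upper-quartile factors 0 and 2. Of 25 complement genes 6 fell (median -0.23; -0.05 against LF libraries 5 and 6), of 22 coagulation genes 3 fell, and of 52 nuclear genes of the respiratory chain 4 fell (median -0.09). With upper-quartile factors 3 complement, 0 coagulation and 0 respiratory chain genes fell, and 1 coagulation gene rose. For these 3 lists DESeq2 called 8, 6 and 7 genes and limma voom 9, 3 and 2. Of 24 genes higher in male than in female liver 2 fell, and of 14 genes higher in female liver 2 rose, while limma voom called 5 and 2. In the circadian clock list 1 of 26 rose and 5 fell (median 0.14). The edgeR counts of this paragraph are to be set against 10.2% of all genes that rose and 12.4% that fell. With upper-quartile factors these shares were 13.3% and 8.24%. Several of the lists lie near or below them.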
